A study of Bos taurus and Capra hircus with 9 samples.

Results

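miR-224, miR-452 and miR-3431 are 3 miRNAs whose genes lie side by side on the X chromosome of cattle. They were taken by name (bta-miR-224, bta-miR-452 and bta-miR-3431) from the deposited table and are 3 of its 296 entries. The table covers milk-derived EVs of 4 goats (animals 17, 44, 79 and 127) and 5 cows (animals 1, 2, 3, 20 and 62), with 1 library per animal. The goats were primiparous Alpine animals sampled at 26 ± 9 days postpartum and the cows were Holstein Friesian animals sampled at 30 ± 7 days, as the paper and the labels give them. The labels name no treatment, and both species gave skimmed milk freed of cells, from which EVs were collected on a sucrose gradient. Goat milk alone received an extra acetic acid step, goats and cows came from different farms, and tags of both species were counted on bovine entries, so species cannot be told apart from these conditions. The 3 miRNAs were chosen because they were high in goats and nearly absent in cows. That difference is therefore given as a description with no test.

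miRNAs are cut from hairpin precursors and bind target mRNAs mainly through the seed, bases 2 to 8 of the mature strand. Genes lying close together are often transcribed as 1 primary transcript, from which each hairpin is then processed on its own. In humans miR-224 and miR-452 are encoded within introns of GABRE, the gene of the epsilon subunit of the GABA-A receptor. miR-224 is known from mouse ovarian granulosa cells, where it acts on Smad4 in TGF-beta signalling, and from human liver tumours, where it is raised. miR-452 is known from the mouse neural crest. miR-3431 is an entry of cattle.

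The mature sequences are shown because the seeds tell which targets a miRNA can share with others, and because a shared sequence would let tags of one entry count on another. They are written 5′ to 3′ as DNA letters, as in the deposited table, with the seed in capitals.
miR-3431: cCTCAGTCagccttgtggatgt
miR-224: cAAGTCACtagtggttccgttta
miR-452: tGTTTGCAgaggaaactgagac
The seeds of the 3 neighbours are all different. No other entry of the table carries any of them, which is common there, since 69.3% of the entries have a seed of their own. miR-224 is 23 nt long and the other two are 22 nt long. The G and C content is 54.5% in miR-3431, 43.5% in miR-224 and 45.5% in miR-452. The longest run of bases shared by any pair is 5 nt, between miR-224 and miR-3431. Against all other entries the longest shared runs are 8 nt for miR-3431 (with miR-664a), 7 nt for miR-224 (with miR-7) and 8 nt for miR-452 (with miR-376e).

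In RefSeq's annotation of the bovine ARS-UCD2.0 assembly each member has 1 gene, and no other miRNA gene lies between them. The order along the X chromosome is MIR3431, MIR224 and MIR452, and the span of GABRE holds all 3. The strand and the exons of GABRE are not in the annotation table used here, so whether the genes lie in introns was not examined in cattle. Coordinates are not given because the build behind the deposited values is not stated.

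Values are TPM, the tags of an entry relative to all tags to which a library is scaled, with each tag counted once whatever its length, and the deposited TPM are whole numbers. The listed entries add up to 239233 to 406336 TPM in goats and 267316 to 420029 TPM in cows. Between 49 and 68 entries are listed at 0 in a goat, and between 73 and 93 in a cow. The paper states average read numbers for each species, higher in goats, but the depth of the single libraries is unknown, so no counting error is given, and a value of 1 or 2 TPM is coarse.

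miR-224 was the most abundant of the neighbours. It was at 1081 TPM in goat 17, 744 TPM in goat 44, 624 TPM in goat 79 and 814 TPM in goat 127, a mean of 815.8 ± 193 TPM (SD, n = 4). In cows it was at 1 TPM in animals 1, 20 and 62, at 2 TPM in animal 2 and at 0 in animal 3. Goat 17 was the highest and goat 79 the lowest, and the species were far from overlapping. Within a library miR-224 ranked between 31 and 43 in the goats. It took 0.169% to 0.340% of the listed TPM of a goat, and by this share goat 127 was the highest.

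miR-3431 followed. It stood at 581 TPM in goat 17, 315 TPM in goat 44, 432 TPM in goat 79 and 459 TPM in goat 127, with a mean of 446.8 ± 109 TPM (SD, n = 4). The cows had 1 TPM in animals 1 and 2, 2 TPM in animal 62 and 0 in animals 3 and 20. Goat 17 was again the highest, but the lowest was goat 44 and not goat 79. Its rank ran from 37 to 50 in the goats, and its share of the listed TPM from 0.117% to 0.192%.

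miR-452 was scarce even in goats. It was at 30 TPM in goat 17, 25 TPM in goat 44, 21 TPM in goat 79 and 37 TPM in goat 127, a mean of 28.2 ± 6.90 TPM (SD, n = 4). It was listed at 0 in all 5 cows, and no fold change can be given against these zeros. Here goat 127 and not goat 17 was the highest. The rank of miR-452 lay between 101 and 130 in the goats, and its share of the listed TPM between 0.0057% and 0.0155%.

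**Figure D1:**
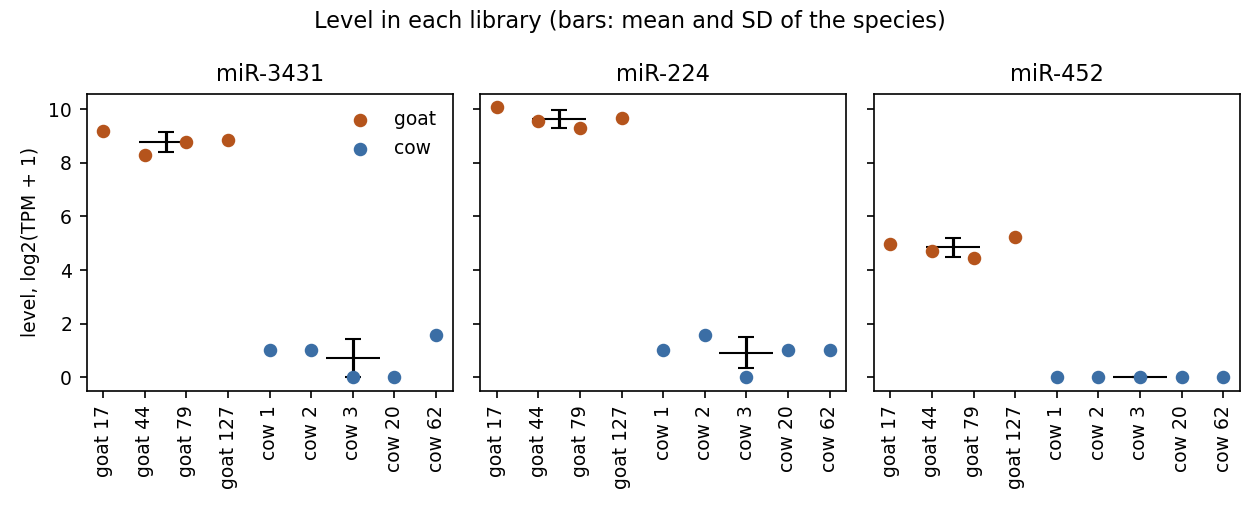
Level of each miRNA in the 9 libraries, as log2(TPM + 1), with goats in brown and cows in blue. Black bars give the mean and SD of each species. All goat points stand far above all cow points, and miR-452 lies at 0 in every cow.

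Every goat was above every cow for all 3 members. This holds for 75 of the 296 entries (25.3%), and it was the ground on which the members were chosen, so nothing is read from it. On the log2(TPM + 1) scale the goat mean minus the cow mean was 8.73 for miR-224, 8.06 for miR-3431 and 4.84 for miR-452. With cow values this close to 0 the size of such a difference is set largely by the pseudocount. It was 10.01, 9.83 and 8.12 with a pseudocount of 0.1, and 6.20, 5.37 and 1.92 with a pseudocount of 10, in the same order. Summed, the neighbours made 1077 to 1692 TPM in a goat and 0 to 3 TPM in a cow. In bulk EV preparations fewer vesicles of one origin and less of a miRNA per vesicle cannot be told apart.

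The entries beside each member by goat mean are listed with their cow levels. The members were chosen as nearly absent in cows, so nothing is read from the contrast. Just above miR-224 by goat mean stood miR-532 (826.5 TPM), another X-linked miRNA, which was at 1353 ± 233 TPM in cows (SD, n = 5). Just below it stood miR-23a, which had 403 ± 122 TPM in cows. Next to miR-3431 were miR-23b-3p and miR-660, with cow means of 293 and 1072 TPM. Next to miR-452 were miR-29b and miR-210, at 97.0 ± 23.2 TPM and 19.2 ± 5.17 TPM in cows.

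Seen from the cows, 104 of the 296 entries never exceeded 2 TPM in any animal. The median of their goat means was 1.62 TPM, and 15 of them reached a mean of 10 TPM in goats. miR-224 and miR-3431 were the only 2 to reach 100 TPM, at the head of the list. miR-154c came next at 83.0 TPM, and miR-452 was in place 7, close to miR-382 at 32.8 TPM and miR-411c-5p at 27.5 TPM. In the other direction, 77 entries never exceeded 2 TPM in any goat, and only miR-2285t among them reached 100 TPM in cows (709 TPM). These lists are picked by the measured values and carry no test.

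**Figure D2:**
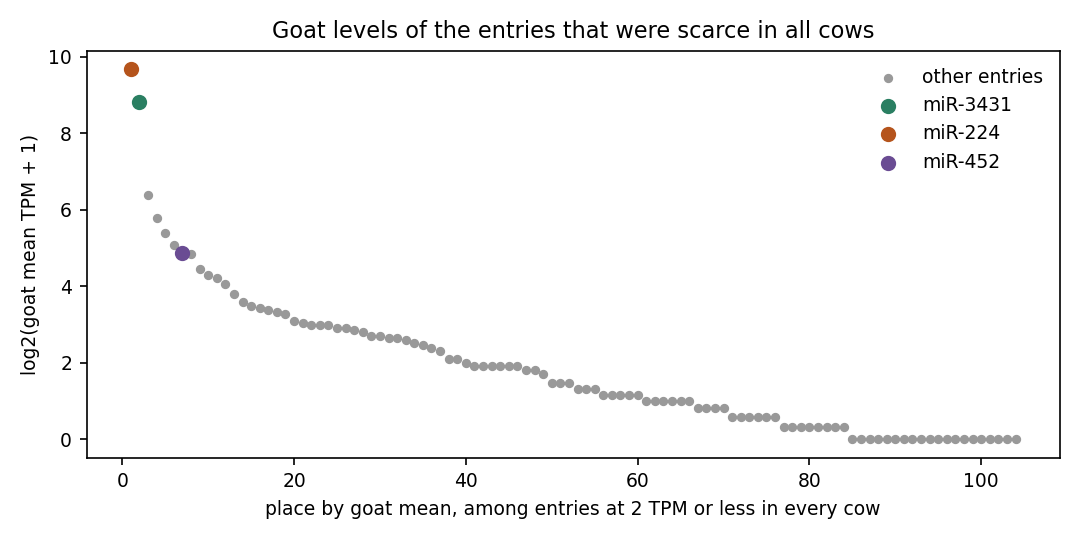
Goat means, as log2(TPM + 1), of the 104 entries at 2 TPM or less in every cow, ordered from the highest to the lowest. miR-224 and miR-3431 stand apart at the left end and miR-452 sits within the run of the other entries.

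The ratios between the neighbours do not depend on how a library is scaled. miR-224 exceeded miR-3431 by 1.86 times in goat 17, 2.36 times in goat 44, 1.44 times in goat 79 and 1.77 times in goat 127. The mean ratio was 1.86 ± 0.38 (SD, n = 4). Goats 44 and 79 mark the ends of this range, and the other two goats lie near its middle.

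miR-224 exceeded miR-452 by 36.0, 29.8, 29.7 and 22.0 times in goats 17, 44, 79 and 127, a mean ratio of 29.4 ± 5.74 (SD, n = 4). Goats 44 and 79, which were farthest apart in the ratio to miR-3431, were almost equal here. miR-3431 exceeded miR-452 by 19.4, 12.6, 20.6 and 12.4 times in the same goats (mean 16.2 ± 4.34, SD, n = 4). In this ratio goats 17 and 79 were high and goats 44 and 127 were low. The listed TPM split the same way, at 406336 and 369984 against 254807 and 239233. Whether the ratio is linked to this property of the libraries was not tested.

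The order miR-224, miR-3431, miR-452 was thus found in 4 of 4 goats. The smallest p that 4 pairs allow in a two-sided exact permutation test is 0.12, and each of the 3 comparisons gave it, also after Benjamini-Hochberg adjustment over them, so the order cannot pass a threshold of 0.05 in this design. In each of the ratios the highest goat exceeded the lowest by 1.64 to 1.66 times. Of the summed TPM of the neighbours, miR-224 made 57.9% to 68.6%, miR-3431 29.1% to 40.1% and miR-452 1.77% to 2.82%. In cows no ratio was formed, since the values were 0 to 2 TPM.

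**Figure D3:**
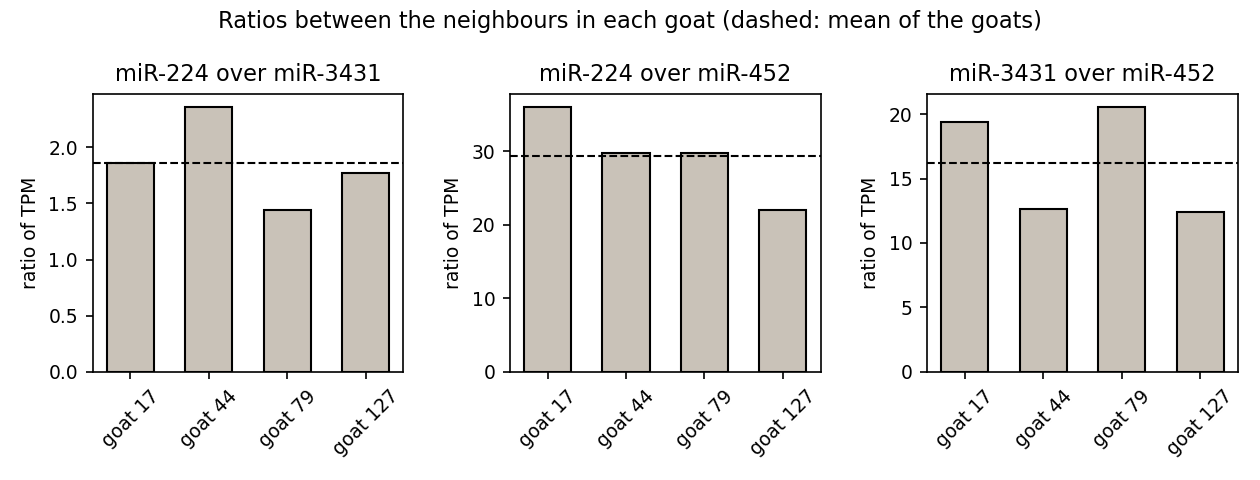
Ratio of TPM for each pair of neighbours in each goat, with the mean of the 4 goats as a dashed line. The ratio of miR-224 to miR-3431 runs from 1.44 in goat 79 to 2.36 in goat 44, and those to miR-452 are more than 10 times.

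In deposited TPM the members varied little between goats. The coefficient of variation was 23.7% for miR-224 and 24.4% for both miR-3431 and miR-452. The median was 32.3% over all entries with a goat mean of at least 10 TPM. As a share of the listed TPM miR-452 varied more, with a mean of 0.0096% and an SD of 0.0043%. The constancy of a ratio was described by the SD over the 4 goats of the difference in log2(TPM + 1). It was 0.29 for miR-224 with miR-3431, 0.29 for miR-224 with miR-452 and 0.38 for miR-3431 with miR-452. The median over all 10585 pairs of such entries was 0.52, and 17.4%, 17.3% and 30.6% of all pairs had a smaller SD, in the same order. Other miRNAs whose genes lie within 10000 bases of each other made 75 pairs, with a median of 0.36 and a range from 0.03 to 1.02. Of these 75 pairs, 29, 29 and 44 had a smaller SD than the 3 pairs of members. The neighbours therefore kept their ratios about as well as neighbouring miRNAs commonly did in these goats, and less well than let-7a-5p with let-7b (0.03) or miR-200a with miR-429 (0.05), pairs named here after their values were seen. The SD of miR-224 with miR-452 was 0.17 without goat 127. Pairs share entries, genes and libraries, so these numbers are a description only.

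**Figure D4:**
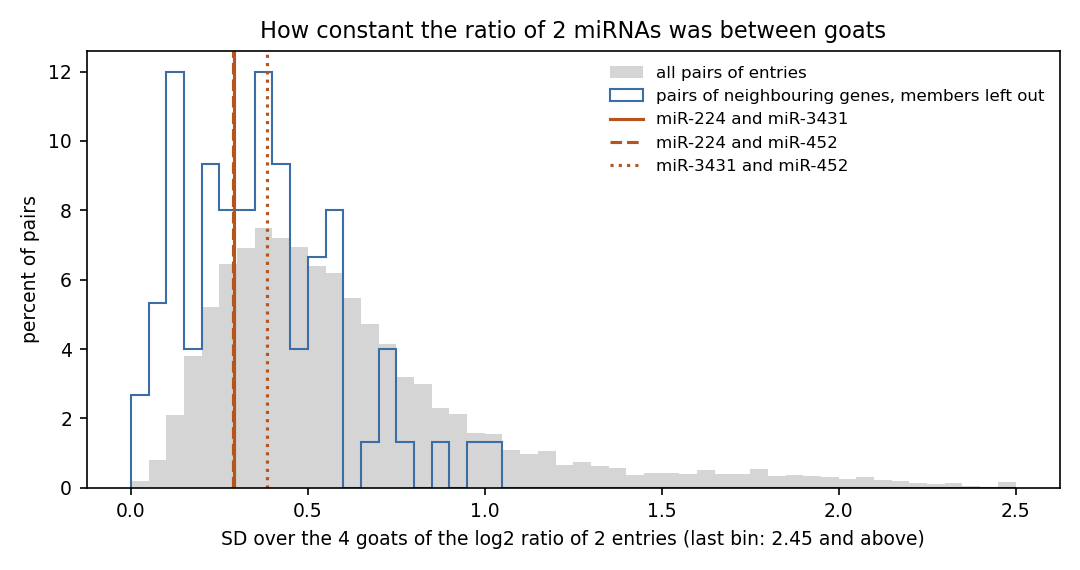
SD over the 4 goats of the log2 ratio of 2 entries, for all 10585 pairs (grey) and for 75 pairs of neighbouring genes (blue), in percent of pairs. The 3 pairs of members (brown lines, at 0.29, 0.29 and 0.38) lie to the left of the median of all pairs (0.52) and in the middle of the neighbouring pairs.

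By the same measure, the 3 entries most like each member over the 4 goats included neither of the other members. They were picked for the smallest SD among 145 entries, so the small size of these SDs is no result. For miR-3431 they were miR-125b, miR-181a and miR-429, with SDs of 0.04, 0.05 and 0.08. miR-125b, a miRNA of wide expression, was at 274, 155, 201 and 218 TPM in goats 17, 44, 79 and 127, so that miR-3431 was 2.03 to 2.15 times as high in each of them. In cows, where the scarce miR-3431 allows no such ratio, miR-125b averaged 532 ± 128 TPM (SD, n = 5). It was lower in goats, with a goat minus cow difference of -1.32 on the log2 scale (standard error 0.26, adjusted p = 3.63e-04, limma). miR-181a, which acts in lymphocyte development, was higher in goats by 1.27 (standard error 0.34, adjusted p = 0.00400, limma). The epithelial miR-429 had 250 ± 51.3 TPM in goats, close to the 222 ± 43.1 TPM of cows, and was not called (adjusted p = 0.574, limma). miR-224 was in place 43 of 145 for likeness to miR-3431, and miR-452 in place 56.

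For miR-224 the most alike entries were miR-543, miR-885 and miR-382, with SDs of 0.18, 0.18 and 0.20, and for miR-452 they were miR-494, miR-370 and miR-411c-5p, with 0.23, 0.25 and 0.28. Of these 6 entries, 5 have their gene on bovine chromosome 21, and miR-885 has its gene on chromosome 22. The genes of miR-494 and miR-543 lie within 10000 bases of each other, as do those of miR-382 and miR-411c-5p, so these are not separate observations. The share of chromosome 21 among the 145 entries was not counted, and nothing is read from this. miR-543, miR-494 and miR-370 were listed at 0 in all 5 cows. miR-382 was at 47, 27, 29 and 28 TPM in goats 17, 44, 79 and 127 and at 0 to 2 TPM in cows. miR-885 was found in both species, with 222 ± 56.5 TPM in the 4 goats against 23.4 ± 7.50 TPM (SD) in the 5 cows, a difference of 3.22 (standard error 0.30, adjusted p = 1.85e-07, limma). Among the likenesses to miR-224, miR-452 was in place 13 of 145 and miR-3431 in place 15. Among those to miR-452, miR-224 was in place 4. These places rest on 4 goats, and the rounding to whole TPM weighs on the scarcer entries.

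The measured entries nearest to the members were scarce in both species. The 3 miRNA genes that follow on either side (MIR11988, MIR507 and MIR507B, and MIR105A, MIR767 and MIR105B) were matched to no entry of the table. No level can be given for them. On the side of MIR3431, the nearest miRNA genes with an entry in the table were those of miR-505 and miR-504. miR-505 had a goat mean of 2.75 TPM and a cow mean of 1.00 TPM, and miR-504 one of 1.25 TPM against 0 in the cows. On the side of MIR452 the nearest was the gene of miR-664a, at 1.00 TPM in goats and 0 in cows. The measured entries closest to this group of genes did not share the high goat levels of miR-3431 and miR-224. Since the members were chosen for being high in goats and these entries were not, nothing is read from this contrast.

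The X chromosome as a whole showed both directions. Of its 76 annotated miRNA genes, 38 have an entry in the table, and 29 entries other than the members have genes on no other chromosome. Of these, 19 were tested, and 5 were higher and 6 lower in goats (limma on log2(TPM + 1), adjusted p under 0.05). Over all 217 entries tested, the members among them, 81 (37.3%) were higher and 52 (24.0%) lower, together 61.3%. Of the 81 higher entries, 28 were at 1 TPM or less in every cow, 23 of them at 0. Of the 52 lower entries, 14 were at 1 TPM or less in every goat, 10 of them at 0. Such entries had passed the filter through goats alone or through cows alone, which fixed their direction. The median difference was -0.29 for the X-linked entries and 0.24 over all entries tested. The latter turned to -0.07 without goat 17 and to -0.15 without goat 79, where fewer goat entries could be tested, and 44 and 46 entries were then higher and 57 and 52 lower. Of the other 5 entries, which have genes on X and elsewhere, let-7f, miR-92a and miR-19b were tested and did not pass.

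The higher X-linked entries were led by miR-223, a miRNA of granulocytes and macrophages. It was at 92, 140, 409 and 16 TPM in goats 17, 44, 79 and 127 and at 0 to 3 TPM in cows, with a difference of 5.69 (standard error 0.71, adjusted p = 4.55e-06, limma). Its goats differed by 25.6 times, against 1.73 times for miR-224. miR-221, which acts on the cell cycle inhibitor p27, was at 13, 62, 86 and 4 TPM in the goats and at 0 to 3 TPM in the cows (difference 4.24, standard error 0.71, adjusted p = 9.79e-05, limma). Both passed the filter through goats, which fixed their direction. In both, goat 79 was the highest and goat 127 the lowest, an order not seen in any member.

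The other 3 were miR-361, miR-6119-5p and miR-6119-3p, with smaller differences of 0.90, 0.76 and 1.35 (adjusted p = 0.0171, 0.0378 and 0.0114, limma). miR-6119-3p exceeded 1 TPM in 4 goats and 3 cows, so it too passed the filter through goats. The count of higher entries fell to 3 without goat 17 or without goat 79. The lower ones were miR-1468, miR-502a, miR-660, miR-421, miR-500 and miR-532, with differences between -1.51 and -0.71. miR-660 had 425 ± 76.8 TPM in the 4 goats against 1072 ± 211 TPM (SD) in the 5 cows (adjusted p = 1.83e-04, limma). Of the lower entries, miR-502a, miR-500, miR-660 and miR-532 lie in 1 neighbourhood of genes, and without it 5 entries were higher and 2 lower of 14 tested, with a median difference of 0.19.

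**Figure D5:**
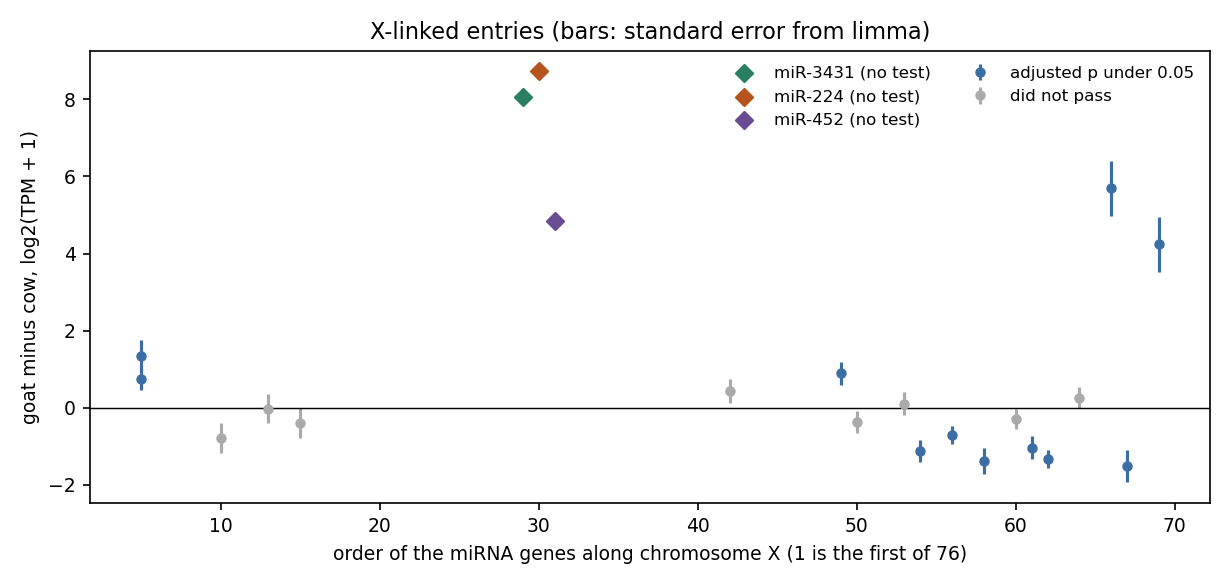
Goat minus cow difference in log2(TPM + 1) of X-linked entries in the order of their genes, with standard errors from limma for the 19 tested entries (blue, passed; grey, did not pass). The 3 members (diamonds, no test) stand together at 8.06, 8.73 and 4.84. The nearest tested entries on either side, miR-106a and miR-652, lie at -0.39 and 0.42. Entries with genes nearer to the members did not pass the filter and are not shown. The members were chosen for this difference, so nothing is read from the contrast.

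miR-3431 is also 1 of the entries with a miRNA number of 2000 or above. It had the highest goat mean of them, ahead of miR-2284x (316 TPM), miR-2478 (97.5 TPM) and miR-6119-5p (35.2 TPM). Without it the group has 56 entries, of which 28 were tested, and 4 were higher and 19 lower in goats (limma, adjusted p under 0.05), beside 37.3% and 24.0% of all entries tested. Of the 19 lower entries 11 were at 1 TPM or less in every goat, 9 of them at 0. These 11 had passed the filter through cows alone, which fixed their direction. The median difference was -1.86, beside 0.24 over all entries tested, and it was -0.60 with no filter, -0.62 with a pseudocount of 10 and -2.81 with a pseudocount of 0.1. The 4 higher ones were miR-6119-5p, miR-6119-3p, miR-3613a and miR-2904, at goat means of 35.2, 5.50, 16.2 and 4.50 TPM. miR-6119-3p exceeded 1 TPM in 4 goats and 3 cows, and miR-2904 in 4 goats and 1 cow, so both passed the filter through goats.

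Among miRNAs linked to cell types, the leukocyte list and the endothelial and stromal list had higher sums in every goat than in every cow, while the sums of the epithelial and erythrocyte lists overlapped. Every goat was above every cow for 6 of 8 leukocyte, 1 of 7 epithelial, 2 of 3 endothelial and stromal and 0 of 2 erythrocyte entries (25.3% of the whole table). Every goat was below every cow for 1 epithelial entry and for none of the other lists (16.2% of the whole table). No leukocyte entry was at 0 throughout a species. The leukocyte sum was 8012 to 19319 TPM in goats and 100 to 177 TPM in cows, and without the abundant miR-146b 444 to 1230 TPM and 17 to 52 TPM. Without miR-146b the goats 17, 44, 79 and 127 had 1172, 635, 1230 and 444 TPM, whereas the summed neighbours had 1692, 1084, 1077 and 1310 TPM. The 7 epithelial entries in the table summed to 26830 to 45365 TPM in goats and 30424 to 43532 TPM in cows. Of these, miR-184 was at 0 in every cow and at only 0 to 1 TPM in goats. The 1 epithelial entry with every goat above every cow was miR-205, at 12 to 25 TPM in goats and at most 1 TPM in cows. The 3 endothelial and stromal entries summed to 217 to 425 TPM in goats and 19 to 30 TPM in cows. Of these, miR-145 was at 0 in every cow and at only 1 to 2 TPM in goats. The 2 erythrocyte entries summed to 1 to 37 TPM in goats and 0 to 10 TPM in cows. The part of these cell types in the levels of the neighbours was not tested.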

How the data were processed

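Small RNA libraries of milk-derived EVs were made with a NEBNext kit and sequenced on a NextSeq instrument. The authors trimmed adapters, mapped the tags of both species on bovine sequences, counted them on entries of miRBase 20 and normalized them as TPM. For the mapping program and the build, a name was not given in the sources used here. In the deposited table the score is this TPM in whole numbers, for 296 entries in 9 libraries. It keeps no read number, so no interval or count test was possible.

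Animals were grouped by the sample labels, and each is a replicate of its species. Entries with more than 1 TPM in 4 or more libraries (217 in all) were compared between species on log2(TPM + 1). The model was limma 3.58.1 (R 4.3.3) with the variance trend switched on. P-values were adjusted by Benjamini-Hochberg over these entries and called under 0.05. The fit was tested on simulated normal log values without rounding to whole TPM, which does not cover entries at or near 0 in a species. No p is given for miR-224, miR-452 and miR-3431. The other steps used Python 3.11.15 with pandas 2.3.3 and scipy 1.17.1. Genes were matched by name to NCBI RefSeq for ARS-UCD2.0, which held 294 of the 296 entries. Named entries were the 3 most alike to each member over the goats, X-linked entries past the threshold that averaged 10 TPM or more in goats or in cows, the 3 of highest goat mean numbered 2000 and above, and those beside a member by goat mean. miR-154c, miR-2285t, miR-500, miR-504, miR-505, miR-664a, miR-6119-3p, miR-3613a, miR-2904, let-7a-5p, let-7b, let-7f, miR-19b, miR-92a, miR-200a, miR-7, miR-376e, miR-145, miR-184, miR-205 and miR-146b are not covered by that rule and were picked with their values in view, as were the levels of 2, 100 TPM and 10000 bases. The members and lists were chosen with earlier results of these data known.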

Additional observations from a re-analysis of the deposited data

Results flagged for a closer look

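Of 45 groups of values examined, 4 held an animal far from the others of its species by Dixon's criterion. None of them concerned miR-224, miR-452 or miR-3431. Chance would give such a flag in about 5% of groups, but this share does not apply to groups at or near 0. A group wholly at 0, such as miR-452 in cows, could not be flagged. miR-181a was at 1400 TPM in cow 62, above the other cows. miR-382 was at 47 TPM in goat 17, above the other goats. miR-411c-5p was at 1 TPM in cow 2 and at 0 in the other cows, and miR-221 was at 3 TPM in cow 1 and at 0 in the other cows. A lone animal above 0 is always flagged by this criterion.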

How the results depend on the processing

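With deposited TPM rescaled to the listed tags or by median of ratios, the goat means and the goat minus cow differences of the 3 members moved by less than the spread between animals. The differences moved with the pseudocount, to 10.01 for miR-224, 9.83 for miR-3431 and 8.12 for miR-452 at 0.1, and to 6.20, 5.37 and 1.92 at 10. With a pseudocount of 10 the mean log2 ratio in goats fell from 4.85 to 4.42 for miR-224 to miR-452 and from 3.98 to 3.56 for miR-3431 to miR-452. X-linked entries higher in goats numbered 8 with no filter, where 29 were tested. Those lower numbered 2 without the neighbourhood of miR-532 and miR-660, an alternative chosen after seeing the data. Entries numbered 2000 and above that were higher numbered 2 when a mean of 10 TPM in a species was required, where 18 were tested.

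Leaving out 1 animal at a time, the SD over goats of the log2 ratio ran from 0.17 to 0.35 for miR-224 with miR-452, from 0.19 to 0.36 for miR-224 with miR-3431 and from 0.36 to 0.40 for miR-3431 with miR-452. Goat means ran from 727 to 880 TPM for miR-224, from 402 to 491 TPM for miR-3431 and from 25.3 to 30.7 TPM for miR-452. Entries called higher in goats numbered 44 to 81 over the whole table, 3 to 6 on X and 2 to 5 among those numbered 2000 and above. Those called lower numbered 44 to 57, 4 to 6 and 15 to 20. The filter asks for 4 libraries, so that with 3 goats left an entry found in goats alone is no longer tested, and 186 to 188 entries were tested there. No paired analysis was possible because goats and cows share no animal number. With 4 goats, whole-number TPM and no read number per library, ratios to miR-452 carry the coarsest values.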
